A study of Mus musculus with 15 samples.

Results

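Hsd3b5, Cyp4a12a, Cyp4a12b, Elovl3, Cib3, Cnmd, Selenbp2 and Bcl6 are 8 genes of the 17527 in the expression table, and most of them belong to the male-patterned programme that growth hormone imposes on mouse liver. They were picked by symbol from the measured values themselves, for large falls in the diet model and for how far each returned after dosing. The levels and differences of the 8 genes in the 3 comparisons are therefore a description and carry no test. That wording held for 5 of the 8. Elovl3 was higher in the model on average, and Cyp4a12a and Bcl6 overlapped between model and control. The 15 libraries were made from mouse liver samples, 5 in each of 3 groups. Control mice are labelled only as controls, with no diet given. Model mice had a nonalcoholic steatohepatitis induced over 20 weeks by a feed whose kilocalories came 60% from fat, 20% from carbohydrate and 20% from protein, with 0.2% cholesterol, and by water with 42 g/L of sugar that was 55% sucrose and 45% fructose. BBBPH mice (JDH in the titles) shared this diet. Beyond week 12 they were given Biotransformed Bear Bile Powder at 150 mg/kg each day by mouth, and the model mice were given saline. The strain, sex and age of the mice are not given in the labels, the dosed group is stated to hold 14 mice, and both fed groups are a model by diet, with no altered allele.

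Growth hormone leaves the pituitary in pulses in male rodents and almost continuously in females. In hepatocytes each pulse passes through the receptor Ghr and the kinase Jak2 to the transcription factor STAT5b, and genes that need the pulses are high in male liver. Hsd3b5, a keto-steroid reductase, and Cyp4a12a and Cyp4a12b, hydroxylases of fatty acids, are well known examples. Elovl3 lengthens very long chain saturated and monounsaturated fatty acids and is known for a daily rhythm in liver. Bcl6 encodes a transcriptional repressor that STAT5 is known to switch off and that binds a site much like that of STAT5. Selenbp2 encodes a cytosolic selenium-binding protein, Cib3 a calcium-binding protein of the family of calcium and integrin binding proteins, and Cnmd chondromodulin, a glycoprotein best known from cartilage.

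Depth read from the values was 35395712 to 39624160 fragments per library, and 1 fragment in a gene of 1 kilobase came to 0.025 to 0.028 FPKM (fragments per kilobase of gene, scaled by each library's fragments). All 8 genes had a mean of at least 1 FPKM. The 4 Y-linked genes listed were above 0 in all 15 libraries, with Ddx3y at 11.8 to 16.8 FPKM. Of the 12 hepatocyte markers listed, 11 were in the table and all of these were above 0 in every library. Their summed level was 76490 to 85580 FPKM among controls, 51050 to 73540 in the model and 71050 to 82000 after dosing, but most of that sum is Alb, and without Alb it was 34510 to 35220, 29910 to 36650 and 34160 to 39380 FPKM, with overlap. Of the 11 markers, 2 (Alb and Serpinc1) were lower in all model than in all control libraries, and 9 overlapped. Among all 9575 genes that averaged at least 1 FPKM, 5.07% were lower in this way. The 10 stellate cell and fibroblast markers summed to 116 to 142 FPKM among controls, 153 to 193 in the model and 136 to 152 after dosing. Of the 10, 6 were higher in all model than in all control libraries. The share of all genes higher in this way was not counted. By limma at an adjusted p under 0.05, 29.9% of the 9575 genes were called higher in the model. In whole liver, fewer hepatocytes and less RNA per hepatocyte cannot be told apart. Model 1_4, BBBPH 2_2 and control 2_1 stood apart by their content. The 6 pancreatic acinar markers summed to 3160 FPKM in BBBPH 2_2 and to at most 3.1 in any control library, and the 6 muscle markers to 357 in control 2_1. In model 1_4 Spp1 alone stood at 252 FPKM (19.4 to 30.2 elsewhere), while the other 5 cholangiocyte markers summed to at most 4.26 in any model library and Krt19 was at 0.555, its lowest of all libraries. Their part in the values below was not tested.

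Several members have a near-identical copy, which bears on how reads can be shared out, so the sequences are shown first. Cyp4a12a (chr4:115299046-115332815) and Cyp4a12b (chr4:115411624-115439034) differ at 23 of 1524 coding bases, an identity of 98.5%, and 36.2% of all 100-base stretches of the Cyp4a12b transcript occur unchanged in that of Cyp4a12a. The 120-base coding window where they differ most lies in exon 6 of both genes, at chr4:115326642-115326761 and chr4:115432895-115433014 on the + strand of GRCm38 (transcripts of GENCODE M21). It spans coding bases 644 to 763, and the 8 bases that differ are in capitals.
Cyp4a12a: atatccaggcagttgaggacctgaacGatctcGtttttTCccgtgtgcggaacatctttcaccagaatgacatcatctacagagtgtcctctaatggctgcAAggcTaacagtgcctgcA
Cyp4a12b: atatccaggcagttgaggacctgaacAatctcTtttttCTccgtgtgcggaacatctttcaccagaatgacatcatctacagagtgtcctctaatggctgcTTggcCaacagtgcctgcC
Fragments over such windows can be told apart, while fragments over the shared stretches could fall to either gene, and the rule the authors used for them is not given in the sources used here. The split between these 2 genes is uncertain for that reason.

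Selenbp2 (chr3:94693573-94704406) has the same kind of partner in Selenbp1 (chr3:94933083-94944758). The coding sequences differ at 18 of 1416 bases (98.7% identical), and 21.2% of 100-base stretches of the Selenbp2 transcript are shared. The pair is shown by the 250 bases before each RefSeq start (GRCm38.p6), since the start regions are alike too. Over 238 aligned bases they were 93.7% identical, and Selenbp2 held 12 bases more within the aligned part. Capitals mark bases that differ or have no partner. Selenbp2 is chr3:94693323-94693572 (+ strand) and Selenbp1 chr3:94932833-94933082 (+ strand).
Selenbp2: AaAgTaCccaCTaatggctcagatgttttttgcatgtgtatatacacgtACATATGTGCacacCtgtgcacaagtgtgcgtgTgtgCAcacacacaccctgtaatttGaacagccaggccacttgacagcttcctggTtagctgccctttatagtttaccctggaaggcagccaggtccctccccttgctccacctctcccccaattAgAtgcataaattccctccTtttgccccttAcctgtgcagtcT
Selenbp1: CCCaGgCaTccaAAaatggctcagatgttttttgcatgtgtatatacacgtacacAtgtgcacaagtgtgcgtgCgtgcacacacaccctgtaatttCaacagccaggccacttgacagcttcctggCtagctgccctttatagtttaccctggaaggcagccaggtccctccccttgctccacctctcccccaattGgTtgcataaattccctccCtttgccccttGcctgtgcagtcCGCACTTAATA
Hsd3b5 stands further from its relatives. Its coding sequence was 80.4% identical to Hsd3b2 and 80.7% to Hsd3b3, with 0% of 50-base stretches shared.

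Hsd3b5 lies at chr3:98618636-98645534 on the - strand in RefSeq. In control it stood at 145, 169, 181, 146 and 143 FPKM in libraries 1_1, 1_5, 2_1, 2_2 and 3_4. Model libraries 1_1, 1_4, 2_1, 2_3 and 3_4 held 3.74, 5.35, 1.39, 10.5 and 47.7 FPKM, and every one of them lay below every control library. BBBPH libraries 2_1, 2_2, 3_1, 3_2 and 3_4 held 88.4, 73.2, 177, 125 and 96.1 FPKM, all above the model range, and BBBPH 3_1 lay inside the control range. Group means were 157 ± 17.2 FPKM for control, 13.7 ± 19.2 for model and 112 ± 40.7 for BBBPH (SD, n = 5). On the log2(FPKM + 1) scale the difference was -4.24 ± 0.55 (SE) for model against control, 3.69 ± 0.55 for BBBPH against model and -0.55 ± 0.55 for BBBPH against control. The model mean rests on replicate 3_4, without which it was 5.25 ± 3.88 FPKM (n = 4). The difference of BBBPH from control was -0.36 without the 3 libraries that stood apart.

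The 250 bases before the RefSeq start of Hsd3b5 (chr3:98645535-98645784 (- strand)) are given because this is the gene the group is named for.
Hsd3b5: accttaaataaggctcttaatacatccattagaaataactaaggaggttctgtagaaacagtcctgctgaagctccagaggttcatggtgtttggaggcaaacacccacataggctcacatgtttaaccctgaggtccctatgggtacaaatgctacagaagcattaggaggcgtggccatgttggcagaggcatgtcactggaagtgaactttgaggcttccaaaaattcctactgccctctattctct
None of the 5 motifs searched for (listed below with Bcl6) was found in it or in the 50 bases after the start. GENCODE M21 places the start of this gene elsewhere, so the window describes the RefSeq start alone.

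Close relatives of Hsd3b5 in the same chromosome 3 cluster also fell. Hsd3b2 fell from 16.9 ± 2.79 to 9.69 ± 1.44 FPKM in the model (log2 difference -0.74 ± 0.15, adjusted p = 0.00177, limma over all 9575 genes tested), and all 5 model libraries lay below all control libraries. Hsd3b3 went from 78.3 ± 18.1 to 55.3 ± 2.86 FPKM (-0.46 ± 0.16, adjusted p = 0.0354), with overlap. That call ended under 10 of 25 alternatives, among them leaving out any 1 of control 1_1, 1_5 and 2_1 or of model 1_1, 1_4, 2_1 and 3_4 (adjusted p of 0.0577 to 0.0842). The ratio of Hsd3b5 to Hsd3b2 within a library was 7.37 to 10.5 in control, 0.127 to 4.82 in model and 4.88 to 14.8 in BBBPH. It is a ratio of FPKM, which are per length, and model lay below both other groups in it. Hsd3b7, a bile acid synthesis enzyme that carries the family name, rose from 75.8 ± 7.63 to 188 ± 20.9 FPKM in the model (1.3 ± 0.13, adjusted p = 7.22e-06) and fell again in BBBPH, to 112 ± 24.3 (-0.76 ± 0.13, adjusted p = 0.000607).

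**Figure D1:**
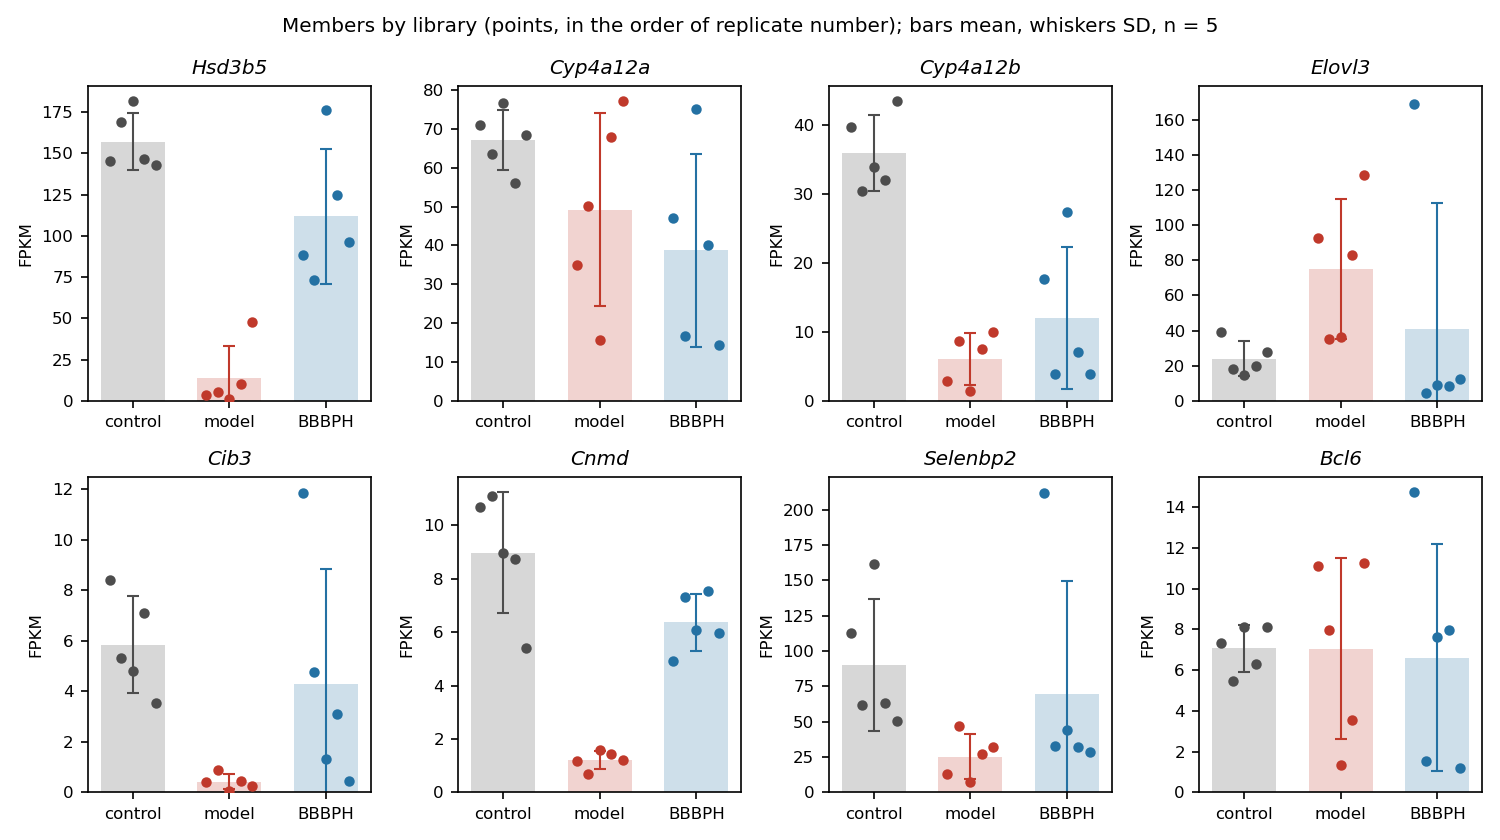
FPKM of the 8 genes (vertical axes, linear from 0) in each library of control, model and BBBPH, with points as libraries in the order of replicate number, bars as group means and whiskers as SD (n = 5). Hsd3b5 and Cnmd have all BBBPH points above all model points, while in Elovl3, Cib3, Selenbp2 and Bcl6 the BBBPH library 2_1 is the highest of its group.

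Cyp4a12b was lower in every model library than in any control library, while its near twin Cyp4a12a overlapped between these groups, as far as the 2 can be separated. Cyp4a12b held 39.7, 30.4, 33.9, 32.1 and 43.5 FPKM in control 1_1, 1_5, 2_1, 2_2 and 3_4. In model 1_1, 1_4, 2_1, 2_3 and 3_4 it held 2.88, 8.72, 1.48, 7.47 and 9.95 FPKM, all below control. BBBPH 2_1, 2_2, 3_1, 3_2 and 3_4 held 17.7, 3.94, 27.5, 7.1 and 3.88 FPKM. Thus only 2 BBBPH libraries, 2_1 and 3_1, rose above the model range, and all 5 were below control. The log2 difference was -2.58 ± 0.48 (SE) for model against control, 0.72 ± 0.48 for BBBPH against model and -1.86 ± 0.48 for BBBPH against control. The difference of BBBPH from model was 0.34 without BBBPH 3_1, 0.39 without model 2_1 and 1.14 without the 3 libraries that stood apart.

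Cyp4a12a held 71, 63.6, 76.5, 56 and 68.3 FPKM in the control libraries, in the same order. The model libraries held 34.9, 50.3, 15.6, 67.8 and 77.1 FPKM, and the BBBPH libraries 47.1, 16.6, 75.2, 40.2 and 14.5 FPKM. Model 3_4 was above every control library, while model 2_1, BBBPH 2_2 and BBBPH 3_4 were far below. The log2 differences were -0.62 ± 0.43 (SE) for model against control and -1.02 ± 0.43 for BBBPH against control. The first was -0.27 without model 2_1. In both genes model 2_1 was the lowest library of its group and BBBPH 3_1 the highest, and their deviations from the group means correlated at r = 0.93 over 15 libraries, a value that shared reads between the copies also touch.

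The ratio of Cyp4a12b to Cyp4a12a did not overlap between any of the groups. It was 0.443 to 0.637 in control (mean 0.538 ± 0.0778), 0.0825 to 0.174 in model (0.118 ± 0.0356) and 0.177 to 0.375 in BBBPH (0.284 ± 0.0849). The lowest BBBPH library, 3_2, stood just above the highest model library, 1_4. The summed level of the pair depends little on how reads are split between them, but it would miss any shared reads that were not counted. It was 103 ± 11.1 FPKM among controls, 55.2 ± 28.2 in the model and 50.7 ± 34.9 after dosing. Every model library lay below every control library (17.1 to 87.1 against 88.1 to 112 FPKM).

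Other Cyp4a genes, which are known targets of PPARα, did not fall past the threshold in the model. Cyp4a10 stood at 281 ± 186 FPKM for control, 503 ± 241 for model and 358 ± 211 for BBBPH (adjusted p = 0.166 for model against control), and Cyp4a32 at 23.9 ± 7.79, 22.9 ± 5.15 and 27.9 ± 9.63 (adjusted p = 0.921). Cyp4a14 was at 276 ± 389 FPKM in control and 475 ± 221 in model (1.47 ± 0.6, adjusted p = 0.0635). Its control spread comes from replicate 3_4 at 969 FPKM, and without that library the difference passed (adjusted p = 0.0012), as it did without model 1_4 (adjusted p = 0.0378).

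**Figure D2:**
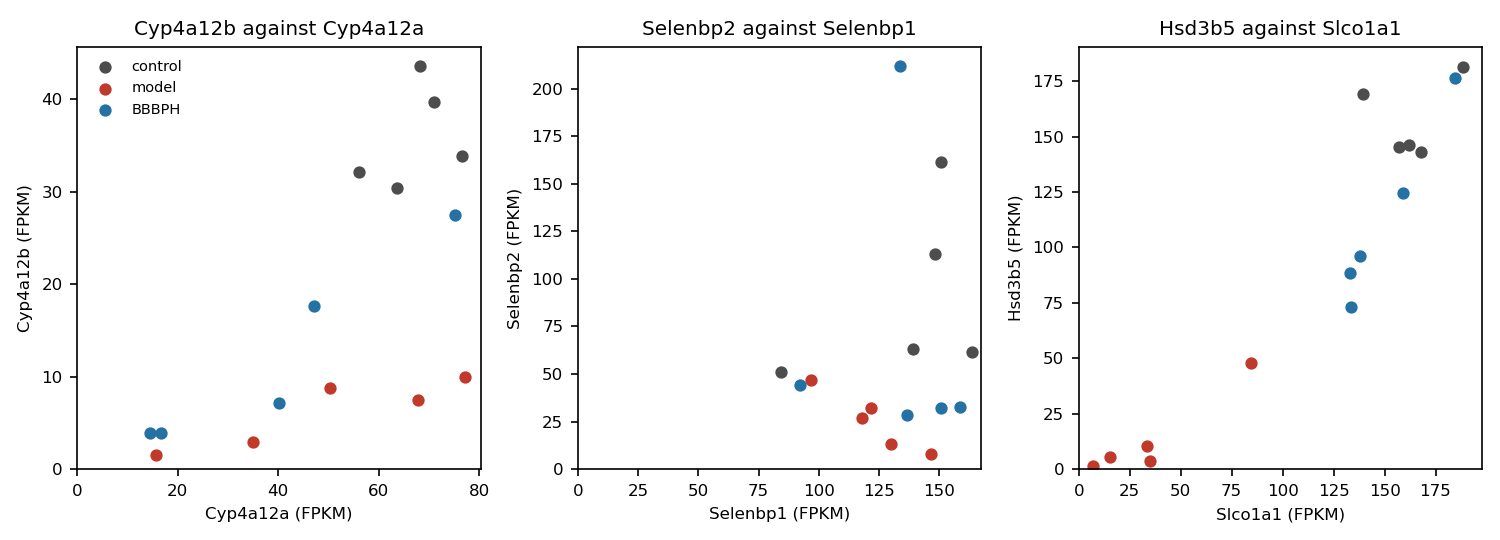
FPKM of Cyp4a12b against Cyp4a12a, of Selenbp2 against Selenbp1 and of Hsd3b5 against Slco1a1 (linear axes from 0), with 1 point per library coloured by group. Model points lie on a flatter line than control points for the Cyp4a12 pair, and Selenbp2 varies while Selenbp1 stays between 84.3 and 164 FPKM. Hsd3b5 is higher where Slco1a1 is higher, with scatter. At 133 to 138 FPKM of Slco1a1, BBBPH 2_1, 2_2 and 3_4 hold 73.2 to 96.1 FPKM of Hsd3b5. Control 1_5 holds 169 at 140 FPKM of Slco1a1.

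Elovl3 ran against the others. Control libraries held 39.4, 18.3, 14.8, 20.1 and 27.8 FPKM. Model libraries held 92.8, 35.2, 36.3, 83.2 and 128 FPKM, of which 35.2 (1_4) and 36.3 (2_1) fell within the control range. In BBBPH, 4 libraries held 4.58 to 12.2 FPKM, below every control library, and BBBPH 2_1 held 169 FPKM, above all 14 other libraries. The BBBPH mean of 40.7 ± 71.8 FPKM thus describes no library, and without BBBPH 2_1 it was 8.65 ± 3.12 (n = 4). The log2 difference was 1.5 ± 0.7 (SE) for model against control and -2.03 ± 0.7 for BBBPH against model. For BBBPH against control it was -0.52 ± 0.7 with all libraries and -1.36 without BBBPH 2_1. It was -0.13 without BBBPH 2_2, -0.34 without BBBPH 3_1, and -0.33 without BBBPH 3_2 or control 1_1. Without the 3 libraries that stood apart it was -0.28, and over all alternatives it ran from -1.36 to 0.13.

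The elongases Elovl2 and Elovl6 moved the other way. Elovl6, which extends palmitate, fell from 23.1 ± 9.04 to 4.57 ± 1.17 FPKM in the model (-2.06 ± 0.26, adjusted p = 4.67e-05) and rose to 19.4 ± 7.95 in BBBPH (1.82 ± 0.26, adjusted p = 0.000182). Elovl2 fell from 236 ± 23.1 to 123 ± 27.3 FPKM (-0.96 ± 0.14, adjusted p = 9.81e-05) and rose to 265 ± 28.8 (1.13 ± 0.14, adjusted p = 4.26e-05). Elovl5 rose in the model, from 91.2 ± 19 to 129 ± 20.1 FPKM (0.51 ± 0.16, adjusted p = 0.0205), a call that median-ratio scaling of the libraries ended (adjusted p = 0.122), as did leaving out control 2_1 (0.0532), control 2_2 (0.0511) or model 2_3 (0.0504). Thus Elovl3 was high in the model where Elovl2 and Elovl6 were low.

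Selenbp2 held 113, 61.8, 161, 63 and 50.8 FPKM in control and 13.1, 46.9, 7.68, 27 and 32.3 FPKM in model. The highest model library, 1_4, was just below the lowest control library, 3_4. BBBPH libraries held 212, 32.6, 44.3, 32.1 and 28.2 FPKM. Here again BBBPH 2_1 was above all 14 others, while the remaining 4 lay within the model range. The log2 difference was -1.89 ± 0.55 (SE) for model against control and 1.17 ± 0.55 for BBBPH against model, the latter on a mean of 69.8 ± 79.6 FPKM that became 34.3 ± 6.93 (n = 4) without BBBPH 2_1, when the difference was 0.65. Selenbp1, the near copy with the near-identical start region shown above, averaged 137 ± 30.9 FPKM in the controls, 123 ± 18.1 in the model and 135 ± 25.8 after dosing (adjusted p = 0.552 for model against control and 0.655 for BBBPH against model). The ratio of Selenbp2 to Selenbp1 was 0.378 to 1.07 in control and 0.0524 to 0.485 in model.

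Cib3 and Cnmd are the low members. Cib3 held 8.4, 5.34, 4.82, 7.09 and 3.53 FPKM in control and 0.421, 0.874, 0.073, 0.441 and 0.259 FPKM in model, with no overlap. BBBPH libraries held 11.9, 4.75, 1.32, 3.11 and 0.44 FPKM. They ran from above the control range (2_1) to within the model range (3_4). The difference was -2.25 ± 0.42 (SE) for model against control and 1.52 ± 0.42 for BBBPH against model on the log2(FPKM + 1) scale, which compresses levels near 1 FPKM. With a pseudocount of 0.1 these were -3.68 and 2.61. The BBBPH mean of 4.3 ± 4.54 FPKM was 2.41 ± 1.92 (n = 4) without BBBPH 2_1.

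Cnmd varied least of the 8 within model and within BBBPH, but not within control. It held 10.7, 11.1, 8.97, 8.72 and 5.4 FPKM in control, 1.17, 0.683, 1.59, 1.45 and 1.2 in model, and 4.91, 7.3, 6.09, 7.52 and 5.98 in BBBPH. Model lay below both other groups without overlap, and BBBPH overlapped control only through control 3_4. The group means were 8.98 ± 2.25, 1.22 ± 0.348 and 6.36 ± 1.07 FPKM. Its coefficient of variation was 28.5% in model, against 50.5% to 140% for the other 7 genes, and 16.8% in BBBPH, against 36.5% to 176%. In control it was 25.1%, above the 11% of Hsd3b5, the 11.6% of Cyp4a12a, the 15.3% of Cyp4a12b and the 16.4% of Bcl6. The log2 differences were -2.15 ± 0.16 (SE) for model against control, 1.73 ± 0.16 for BBBPH against model and -0.42 ± 0.16 for BBBPH against control. BBBPH 2_1, high in 4 other members, was the lowest of its group in Cnmd.

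Bcl6 did not separate the groups. It held 7.3, 5.48, 8.09, 6.29 and 8.13 FPKM in control, 11.1, 7.98, 1.37, 3.57 and 11.2 in model, and 14.7, 1.53, 7.63, 7.97 and 1.19 in BBBPH. The means were 7.06 ± 1.16, 7.05 ± 4.45 and 6.61 ± 5.56 FPKM. What differed was the spread, with a coefficient of variation of 16.4% in control, 63.1% in model and 84.2% in BBBPH. Both fed groups held libraries above and below the whole control range. The log2 difference of model from control was -0.24 ± 0.52 (SE) and ran from -0.45 without model 3_4 to 0.14 without model 2_1. That of BBBPH from model was -0.22 ± 0.52. It was -0.6 without model 2_1, 0.13 without BBBPH 3_4 and 0.08 without BBBPH 2_2, and over all alternatives it ran from -0.6 to 0.18.

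The start regions of Bcl6 are shown for the motif TTCNNNGAA, the core that STAT5 and BCL6 are both known to bind. RefSeq gives Bcl6 (chr16:23965050-23988866, - strand) a pair of starts. Capitals mark TTCNNNGAA and, in the first, CACGTG, the E-box bound by clock factors.
Bcl6 first start, chr16:23988853-23989102: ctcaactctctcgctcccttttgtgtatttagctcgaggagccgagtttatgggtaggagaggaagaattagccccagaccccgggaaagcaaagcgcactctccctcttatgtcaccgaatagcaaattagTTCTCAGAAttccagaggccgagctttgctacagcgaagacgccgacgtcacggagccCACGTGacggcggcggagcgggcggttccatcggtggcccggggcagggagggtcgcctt
Bcl6 second start, chr16:23981284-23981533: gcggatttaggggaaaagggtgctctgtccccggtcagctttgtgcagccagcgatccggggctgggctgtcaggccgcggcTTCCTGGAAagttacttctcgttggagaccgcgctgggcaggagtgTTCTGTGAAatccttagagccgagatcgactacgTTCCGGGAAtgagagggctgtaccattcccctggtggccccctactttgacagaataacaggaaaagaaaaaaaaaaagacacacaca
The first window held 1 match of TTCNNNGAA and the second 3. Of all 32851 promoter windows in the table (250 bases before to 50 after the start), 8.3% held the motif and 11 windows (0.033%) held at least 3. The search read both strands and also covered CAAAGTCCA (HNF4A), TTGCGCAA (C/EBP), CACGTG and AGGTCA (a nuclear receptor site), which 0.47%, 0.18%, 7.15% and 16.3% of all windows held. No motif contains another, and TTCNNNGAA, TTGCGCAA and CACGTG read the same on both strands. RefSeq windows were matched for 5 of the 8 genes, in 6 windows. TTCNNNGAA was found in both windows of Bcl6 and CACGTG in the first. The windows of Hsd3b5, Cib3, Cnmd and Selenbp2 held none of the 5. A match is only a run of letters, and its absence says nothing of binding elsewhere.

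Read together, 5 of the 8 genes (Hsd3b5, Cyp4a12b, Cib3, Cnmd and Selenbp2) had all model libraries below all control libraries, an outcome that 5.07% of all 9575 genes showed. As the genes were picked for such falls, nothing is read from that count. All BBBPH libraries lay above all model libraries in 2 of the 8 (Hsd3b5 and Cnmd), where 9.11% of all genes did so, and all BBBPH libraries lay below all control libraries in 1 (Cyp4a12b), where 2.22% did. For the 5 genes, the share of the log2 fall that BBBPH returned was 87% in Hsd3b5, 80.6% in Cnmd, 67.7% in Cib3, 61.8% in Selenbp2 and 27.8% in Cyp4a12b. Leaving out any 1 library kept Hsd3b5 between 82.8% and 90.2% and Cnmd between 75.3% and 84.1%. Selenbp2 went to 34.2% without BBBPH 2_1, Cib3 to 48.9% without the same library, and Cyp4a12b to 13.3% without BBBPH 3_1. The comparisons with model share the model libraries, so a fall and its return are not independent measures.

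Within a group, the 8 genes did not move as a single block. In model, replicate 2_1 was the lowest library for 6 of the 8 (Hsd3b5, Cyp4a12a, Cyp4a12b, Cib3, Selenbp2 and Bcl6), yet the highest for Cnmd, and replicate 3_4 was the highest for 5 (Hsd3b5, Cyp4a12a, Cyp4a12b, Elovl3 and Bcl6). In BBBPH, 2_1 was highest for Elovl3, Cib3, Selenbp2 and Bcl6, 3_1 for Hsd3b5, Cyp4a12a and Cyp4a12b, and 3_4 was lowest for 5 genes. After subtracting group means, Hsd3b5 correlated with Cyp4a12a at 0.71 and with Cyp4a12b at 0.62 but with Cib3 at -0.11 and with Cnmd at -0.02. Bcl6 correlated with Cyp4a12a at 0.77, and Cnmd was at or below -0.02 with each of the other 7. These values are over 15 libraries that share depth and processing, and describe them only.

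**Figure D3:**
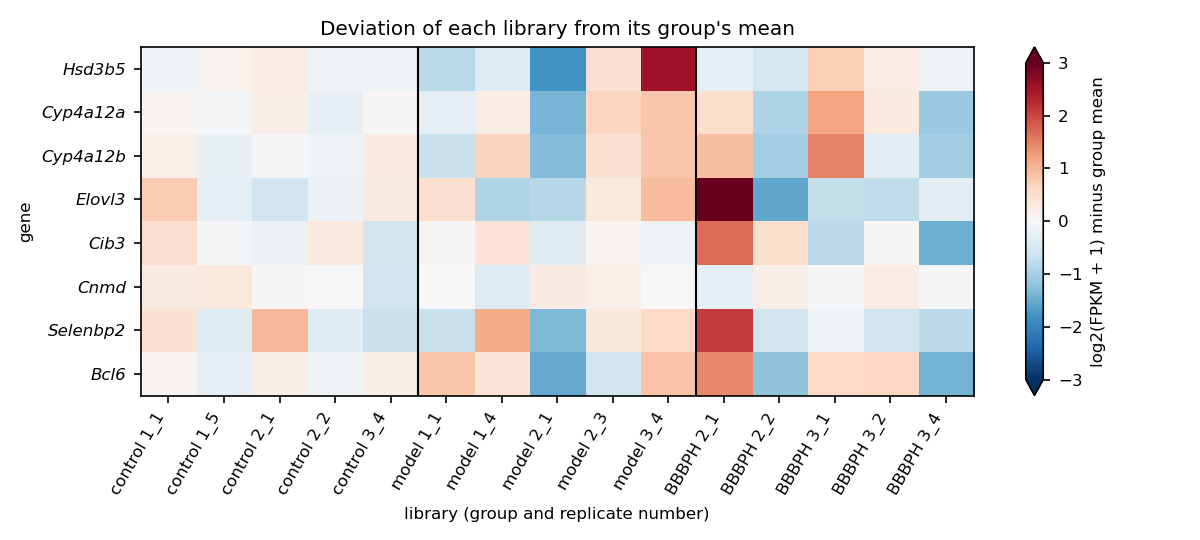
Deviation of each library (columns, split by group) from its group's mean on the log2(FPKM + 1) scale for the 8 genes (rows), red above and blue below. Model 2_1 is blue in every row but Cnmd, BBBPH 2_1 is deep red in Elovl3, Cib3, Selenbp2 and Bcl6, and the row of Cnmd is pale throughout.

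BBBPH 2_1 also differed in the genes of the daily clock, a list added after its values were seen. All 14 clock and clock output genes lay outside the range of the other 4 BBBPH libraries, 10 below and 4 above, where 49% of all genes tested did so for this library. Dbp, a clock output factor, was at 3.51 FPKM in BBBPH 2_1 and at 30.8 to 52.1 in the others, Nr1d1 at 2.27 against 7.36 to 16.1, and Arntl, which drives both, at 1.03 against 0.0876 to 0.206. Between model and control 7 of the 14 overlapped, Dbp and Arntl among them. Per2, Per3, Cry1, Cry2, Nr1d2 and Tef were lower in all model libraries (Per3 at 0.527 to 1.16 FPKM against 1.82 to 4.37). Nr1d1 was higher (20.7 to 38.3 against 8.67 to 15.2), the opposite of its place in BBBPH 2_1. Of all genes tested, 5.07% had all model libraries below all control libraries, and the share with all above was not counted. As the clock list was added after values were seen, nothing is read from these counts. The hour at which the livers were taken is not in the labels. The part of clock phase in the levels of Elovl3, Cib3, Selenbp2 and Bcl6 was not tested.

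The list of growth hormone signalling genes, which also holds the leptin receptor, changed in both directions. Of 22 tested genes of the list (24 listed), 5 rose and 5 fell in the model, where 29.9% of all genes tested were called higher and 8.64% lower. The median log2 difference of the list was -0.01, beside 0.12 over all genes. Igf1, the chief growth factor made under growth hormone, fell from 73.1 ± 7.79 to 52.4 ± 1.75 FPKM (-0.47 ± 0.1, adjusted p = 0.00208) and rose to 73.2 ± 11.6 in BBBPH (0.46 ± 0.1, adjusted p = 0.0033), with no overlap in either comparison. The leptin receptor Lepr fell from 5.23 ± 2.42 to 0.552 ± 0.145 FPKM (-1.93 ± 0.25, adjusted p = 4.73e-05) and rose to 5.4 ± 2.54 (1.97 ± 0.25, adjusted p = 6.19e-05). Stat5a rose from 1.33 ± 0.121 to 2.79 ± 0.363 FPKM (0.7 ± 0.1, adjusted p = 0.000125), and so did Ptpn6, a phosphatase of cytokine signalling (0.6 ± 0.09, adjusted p = 0.000169).

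The receptor and its kinase did not pass in the model. Ghr was at 152 ± 14.7 FPKM in control and 136 ± 7.5 in model (-0.16 ± 0.08, adjusted p = 0.109), and at 123 ± 8.12 in BBBPH, below control (-0.3 ± 0.08, adjusted p = 0.00983). Under median-ratio scaling the model difference of Ghr was called too (adjusted p = 0.00163), and likewise without control 3_4 (adjusted p = 0.0315). Jak2 was at 1.76 ± 0.0928 and 1.97 ± 0.131 FPKM (adjusted p = 0.199). Stat5b, the factor of the male pattern, was at 5.73 ± 0.55 FPKM in control and 6.72 ± 0.592 in model (0.2 ± 0.07, adjusted p = 0.0427), a call that 12 of 25 alternatives ended, median-ratio scaling among them (adjusted p = 0.533) and leaving out any 1 of control 1_1, 1_5 and 2_2, of model 1_1, 2_1, 2_3 and 3_4, or BBBPH 2_2 (adjusted p of 0.0551 to 0.105).

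Feedback genes induced by each growth hormone pulse varied within groups. Cish held 21.8, 16.8, 8.87, 6.96 and 19.9 FPKM in control, 1.82, 18.5, 5.66, 8.93 and 1.41 in model and 0.533, 4.01, 2.05, 1.76 and 7.34 in BBBPH. Model did not pass against control (-1.25 ± 0.55, adjusted p = 0.0824) unless replicate 1_4 was left out (adjusted p = 0.0186), whereas BBBPH was lower than control (-2.05 ± 0.55, adjusted p = 0.0131, and 0.0539 with the first digit of the replicate number as a block). Socs2 was at 2.85 ± 1.63, 1.26 ± 0.89 and 2 ± 1.14 FPKM (adjusted p = 0.0963 for model against control, 0.0321 without control 2_1 and 0.0401 without model 1_4). Socs3 was at 6.97 ± 4.5, 3.94 ± 2.37 and 1.88 ± 0.444 FPKM and fell in BBBPH against control (-1.29 ± 0.35, adjusted p = 0.0142).

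Beyond the 8 genes, the male-biased list fell broadly. This list, like the others, was written with earlier results of these data known, so its counts are not independent support. Of 25 tested genes of 28 listed (members left out), 20 fell and 0 rose in the model, where 8.64% of all genes tested were called lower and 29.9% higher. The median log2 difference was -0.89, beside 0.12 over all genes. In BBBPH against model 9 rose and 1 fell (median 0.43 beside 0.02), where 14.2% of all genes tested were called higher and 12.2% lower. In BBBPH against control 0 rose and 6 fell, where 24.4% were called higher and 3.7% lower. The model count was 15 without model 1_4, 13 without all 3 libraries that stood apart and 9 with the replicate number as a block. That block leaves fewer libraries to carry each comparison. Slco1a1, an organic anion uptake transporter, fell from 163 ± 17.8 to 35.1 ± 30 FPKM (-2.6 ± 0.42, adjusted p = 0.000293) and rose to 150 ± 22.2 (2.47 ± 0.42, adjusted p = 0.000617). Gstp1, a glutathione transferase, fell from 1408 ± 242 to 495 ± 135 FPKM (-1.53 ± 0.22, adjusted p = 9.9e-05) and rose to 1333 ± 363 (1.42 ± 0.22, adjusted p = 0.000251). Ugt2b1, a glucuronosyltransferase, fell as well, from 265 ± 24.9 to 126 ± 32.4 FPKM (-1.12 ± 0.17, adjusted p = 0.000218), but stood at 132 ± 22.3 in BBBPH and did not pass against model (0.1 ± 0.17, adjusted p = 0.713). Ugt2b1 thus stood below control in both fed groups (-1.02 ± 0.17, adjusted p = 0.00115 for BBBPH against control).

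Of the female-biased list, 10 of 31 genes in the table were expressed highly enough to be tested. In the model 3 rose and 1 fell, shares near the 29.9% called higher and 8.64% called lower among all genes. These shares depend on the filter. The 3 that rose (Cyp2b9, Cyp2a22 and Slc22a27) averaged below 1 FPKM in control and passed it only through the fed groups. With no filter, which tests more genes, 13 of the list were called in either direction, and 7 were with TPM. In BBBPH against model 4 rose (Fmo2, Fmo4, Acot3 and Acot4) and 2 fell, with a median of 0.22 beside 0.02 and 14.2% and 12.2% of all genes called. Cyp2b9, a P450 of female liver, was at 0.0266 to 0.183 FPKM in control, near the level of a few fragments, at 30.4 to 137 in model and at 7.88 to 80.1 in BBBPH (5.96 ± 0.52, adjusted p = 2.8e-06 for model against control, and -0.99 ± 0.52, adjusted p = 0.173 for BBBPH against model). Cyp2a22 rose from 0.354 ± 0.288 to 10 ± 6.3 FPKM (2.84 ± 0.35, adjusted p = 3.61e-05) and fell to 1.7 ± 0.886 in BBBPH (-1.89 ± 0.35, adjusted p = 0.00109). Slc22a27, an anion transporter, rose from 0.118 ± 0.121 to 4.05 ± 2.3 FPKM (2.07 ± 0.26, adjusted p = 3.7e-05) and fell to 0.796 ± 0.531 (-1.42 ± 0.26, adjusted p = 0.000922), and Slc22a28, of the same family, fell in the model (-0.5 ± 0.14, adjusted p = 0.0107). In BBBPH against control Cyp2b9 was still higher (4.96 ± 0.52, adjusted p = 4.88e-05).

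Among 28 tested transcription factors of sex-patterned liver genes (30 listed), 7 rose and 2 fell in the model, 6 rose and 6 fell in BBBPH against model, and 12 rose and 3 fell in BBBPH against control. Among all genes, 29.9% and 8.64% were called higher and lower in the first, 14.2% and 12.2% in the second, and 24.4% and 3.7% in the third, so that the counts for the model are near the background. Tox rose from 0.604 ± 0.267 to 1.81 ± 0.893 FPKM (0.77 ± 0.17, adjusted p = 0.00294). Its control mean is below 1 FPKM, so that it passed the filter only through the fed groups. Tef, a clock output factor, fell from 27.6 ± 2.35 to 17.3 ± 4.33 FPKM (-0.67 ± 0.15, adjusted p = 0.00324). A block for replicate number ended the calls of Tox and Tef (adjusted p of 0.0698 and 0.0766). Hnf4a, a factor needed for many male-patterned genes, was at 172 ± 21.9, 193 ± 7.58 and 134 ± 20.7 FPKM and fell in BBBPH against model (-0.54 ± 0.1, adjusted p = 0.00147). Cux2, a factor of female liver, was at most 0.0453 FPKM in control and too low to test. Of 24 tested relatives of the members by family (35 listed), 3 rose and 8 fell in the model, beside 29.9% and 8.64% of all genes, and Cyp4f13 was among those that fell (-0.48 ± 0.07, adjusted p = 0.000174).

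Scaling bears on the weaker of these calls. With median-ratio scaling the median log2 difference of all genes moved from 0.12 to -0.01 for model against control and from 0.13 to -0.01 for BBBPH against control. The calls higher and lower went from 2865 and 827 to 1482 and 1815 in the first and from 2337 and 354 to 665 and 944 in the second. The male-biased count stayed at 20 lower and 0 higher, while the transcription factor list went from 7 higher and 2 lower to 2 and 5. Under this scaling the 8 genes kept the sign of each difference, with Hsd3b5 at -4.38 and Cyp4a12b at -2.72 for model against control.

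**Figure D4:**
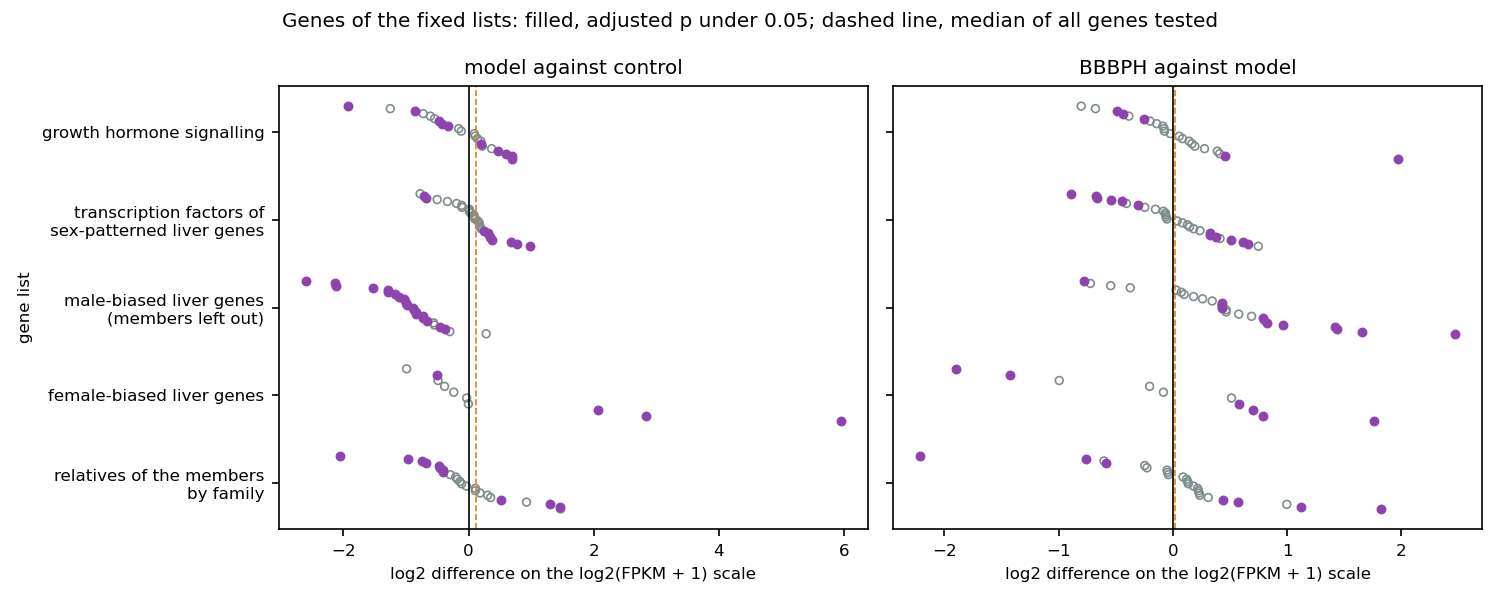
Log2 differences (horizontal axis, log2(FPKM + 1) scale) of the tested genes of 5 lists (rows) for model against control and BBBPH against model, with filled points for an adjusted p under 0.05 and a dashed line at the median of all genes tested. In the male-biased row 20 of 25 points are filled and left of 0 in the model, and 9 are filled and right of 0 in BBBPH against model.

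Outside the members, the tested genes whose levels ran most like Hsd3b5 over the 15 libraries were Slco1a1 (Pearson r = 0.97 on the log2 scale), Gstp1 (0.91), Cdh1 (0.91), Maco1 (0.9), Gstp-ps (0.9) and C1ra (0.9), ranked among 9567 genes. Gstp-ps is a near copy of Gstp1, so that reads may be shared. Slco1a1 and Gstp1 were given above with tests, as genes of the male-biased list. As the 6 were ranked by likeness to a gene picked for its fall and return, their own fall and return follow from that choice. The others are given without a test. The adhesion gene Cdh1, for example, averaged 6.35 ± 1.07 FPKM among controls, 2.33 ± 1.28 in the model and 6.4 ± 1.55 after dosing. The group means carry most of that likeness. After subtracting them, Slco1a1 stayed at 0.88 and the others came to 0.34 to 0.64. The highest after Slco1a1 were the urinary protein genes Mup3 (0.87) and Mup7 (0.85) and the secreted inhibitor Serpina1e (0.82). Next came Slc22a28, a gene of the female-biased list (0.78), and AU021092 (0.78). Model 3_4, which held the most Hsd3b5 of its group, also held the most Slco1a1 (84.4 FPKM), and model 2_1 the least of both (7.14 FPKM of Slco1a1). With the 3 libraries that stood apart left out, 2 of the 6 genes were again among the first 6.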

How the data were processed

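RNA sequencing of liver gave 15 libraries (VAHTS Universal V6 kit, per the labels' protocols). The deposited values are the authors' FPKM per gene, 1 column a library with no pooling. HISAT2, HTSeq, fastp and DESeq2 and the mm10 build are listed, per the submitters' processing notes, without versions, and the annotation and the treatment of strand and of shared reads are not given in the sources used here. Single files and the series table held equal values (largest difference 0 FPKM), and no column was left unmatched (0).

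Groups come from the labels. The members, the 5 gene lists and the rules were chosen with earlier results of these data known. Fragment counts and depth were recovered from the whole-number ratios of FPKM within a gene, for 15526 of the 17051 genes above 0 in any library. Genes were kept only where the ratios and the length lay within 0.02 of whole numbers. That 100% of the kept values did so follows from this rule. The recovery and the fit were tested on simulated data. The 9575 of 17527 genes averaging 1 FPKM or more were fitted with limma 3.58.1 in R 4.3.3 on log2(FPKM + 1), with 3 group means, 12 residual degrees of freedom and a mean-variance trend. Tests were two-sided, with Benjamini-Hochberg adjustment over all genes tested, and calls are at 0.05. Nothing says that the samples of a group are separate animals, so p-values measure the spread between these samples. A log2(FPKM + 1) difference understates changes of low genes. Errors are SD of levels and SE of differences.

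Named genes were the 8 members, the 4 with the smallest adjusted p of each list in model against control, 21 named whatever their values and the 6 most like Hsd3b5. Some genes that the rule names are not reported here. Clock genes were added after their values were seen. Alternatives were each library left out, 3 libraries left out, fits of 2 groups, TPM, limma-voom on recovered counts, median-ratio scaling, a filter at 5 FPKM or none, a pseudocount of 0.1, and a block for replicate number (whole, or first digit only). Promoter windows and positions are RefSeq (GRCm38.p6, the same assembly as mm10), and transcripts GENCODE M21. Python 3.11.15 with pandas 2.3.3 was used for the summaries.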

Additional observations from a re-analysis of the deposited data

Results flagged for a closer look

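Among 135 groups of 5 libraries checked with Dixon's test, 10 held a library far from the other 4, and chance gives about 1 in 20. The members account for 2 of these in 24 groups. Elovl3 was at 169.1 FPKM in BBBPH 2_1 and at 4.585 to 12.19 in the other BBBPH libraries, and Selenbp2 at 211.7 FPKM in the same library and at 28.24 to 44.28 in the others. Tef, a clock output factor, was low there at 19.13 FPKM, with 27.81 to 32.19 in the others.

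In BBBPH 3_4, Cux2 was at 0.461 FPKM (0.02637 to 0.04543 in the others) and Cdh1 at 3.77 (6.428 to 7.781). In model 2_3, Hsd3b3 was at 60.39 FPKM (53.72 to 54.54). Ugt2b1 was at 70.2 FPKM in model 1_4 (127.1 to 153.5). In control 3_4, Elovl2 was at 276.5 FPKM (220.3 to 231.9) and Selenbp1 at 84.32 (139.4 to 163.6), and Cyp2a22 was at 0.8617 FPKM in control 1_5 (0.1811 to 0.2959).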

How the results depend on the processing

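Of 117 tests of named genes, 65 passed, 25 of them under all 25 alternatives, and 40 were lost under at least 1. Of the 52 that did not pass, 11 passed under at least 1 alternative, and 0 called values turned direction. Genes called numbered 3692 for model against control, 2533 for BBBPH against model, and 2691 for BBBPH against control. A filter at 5 FPKM, which tests fewer genes, gave 2259, 1634 and 1502, and median-ratio scaling gave 1609 in the last. Leaving out 1 library gave 3112 to 3761, 2084 to 2647 and 1887 to 2845. With 3 libraries out, 2 of the 6 genes most like Hsd3b5 were shared.

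Same-numbered libraries deviated from their group means with r of -0.33 to 0.02 over 8 pairs. The labels do not say what the numbers mean, and these values do not settle whether samples were paired. The first digit was not checked in this way. With the replicate number as a block, 1315, 305 and 185 genes were called. In this fit a library whose number no other library carries adds nothing to a comparison. The fit also leaves fewer residual degrees of freedom than the 12 of the main fit. How far this lowers the counts was not tested. List genes called went from 54 to 27, from 40 to 3 (26 with the first digit as block) and from 38 to 6.

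Of 721 recomputed member values, 10 moved by more than 1 SD. In model against control, Cib3 was at -3.68 with a pseudocount of 0.1 and -4.04 with voom, and Cnmd at -2.44 with TPM, -2.79 and -2.88. In BBBPH against model, Cib3 was at 2.61 and 2.9, Cnmd at 2.32 and 2.41, and Selenbp2 at 2.19 with the block. The cause was not tested.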
